A study of Mus musculus with 8 samples.

Results

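The CatSper channel is the sperm-specific calcium channel of the flagellum. It opens when the sperm cytoplasm becomes alkaline, and the calcium that enters drives hyperactivated swimming. Catsper1, Catsper2, Catsper3 and Catsper4 encode the pore-forming subunits, which assemble into a heterotetramer around the ion path. Catsperb, Catsperd, Catsperg1 and Catsperg2 encode auxiliary transmembrane subunits with large extracellular domains that surround the pore. In mice, males that lack any of the pore subunits make sperm but are infertile. The question addressed here was when transcripts of each subunit accumulate during male germ cell development.

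The members were all probe sets whose platform annotation lists only these 8 genes. There were 9 such probe sets among the 45101 on the array, 4 for pore and 5 for auxiliary subunits, and they represented 6 of the 8 genes. Catsper4 and Catsperb had no probe set under this annotation and were not analysed here. Total RNA was hybridised to Mouse 430 2.0 oligonucleotide arrays, on which each probe set gives a signal value and a gene can have several. The germ cells came from mice of strain BL/6-129 and represented 4 stages, with 2 arrays each: type A spermatogonia and type B spermatogonia, which divide by mitosis, pachytene spermatocytes, which are in meiotic prophase, and round spermatids, which are haploid and go on to build the flagellum. The submitters describe the preparations behind the arrays as independent. The labels name no treatment, genetic change, age or purification method.

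Values are MAS5 signals on a linear scale, and their trimmed mean was 125 on all 8 arrays. Each change is therefore relative to the rest of the array, and in such bulk samples fewer cells of a type and less RNA per cell cannot be told apart. Precision is limited by having 2 arrays per stage. Tests were made with limma on log2(signal + 16) over 14155 genes, where a gene was tested if its brightest probe set exceeded the array median on at least 2 of 8 arrays, and a change was called at an adjusted p under 0.05. Errors given with ± beside log2 changes are limma standard errors. Of the 6 measured CatSper genes, 5 were tested. Catsper1 and Catsper3 were above the array median on none of the 4 spermatogonial arrays and Catsperd and Catsperg1 on 1, so these 4 entered the test through their later stages and had to differ there. Their counts are a description, and Catsper2 alone was above the median on all 8 arrays.

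Marker sums were compared with the labelled stages. The summed signal of 9 spermatogonia markers, among them Zbtb16, Kit and Stra8, was 6904 and 7492 in type A, 4613 to 7411 in type B, 700.0 and 793 in pachytene cells and 1222 and 1288 in spermatids. That of 8 round spermatid markers, such as Prm1 and Tnp1, was 93.6 and 112 in type A, 2737 and 3012 in pachytene cells, and 29434 and 33719 in spermatids. Within type B this sum was 84.0 on the first array and 1761 on the second, and that of 9 pachytene markers 720.9 and 8754, while pachytene cells had 18747 and 19599 and spermatids 21599 and 21729. The pachytene markers thus did not set pachytene cells apart from spermatids, where 2 of the 9 were lower and 1 higher by limma. Type B replicate 2 thus carried transcripts of later stages, and the type B replicates correlated at r = 0.886 across genes, against 0.962 to 0.981 for the other stages and 0.975 between type B replicate 1 and type A replicate 2. Sums of somatic markers were taken without detection calls, so a low sum does not show that such cells were present. The sum of 9 Sertoli cell markers ran from 5864 to 8082 in type A and 4358 to 5732 in type B. It ran from 2785 to 3551 in pachytene cells and 595.7 to 690.8 in spermatids. Those of 8 peritubular, stromal and endothelial markers ran from 10407 to 13931, 14041 to 14294, 1300.3 to 1815 and 1026 to 1208 in the same order, those of the 4 measured of 6 Leydig cell markers from 630.9 to 1167, 1149 to 1497, 516.8 to 945.0 and 88.5 to 88.8, and those of the 7 measured of 8 macrophage and blood cell markers from 595.7 to 741.7, 907.6 to 945.1, 277.8 to 312.3 and 504.3 to 515.4. Not every sum fell at each step, as that of macrophage and blood cell markers was higher in spermatids than in pachytene cells. The part of these differences in somatic RNA in the CatSper changes was not tested.

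The CatSper genes rose at 2 different steps. Catsper2, Catsperd and Catsperg1 reached most of their level in pachytene spermatocytes, while Catsper1 and Catsper3 stayed low there and rose more than 11-fold in round spermatids.

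The 250 bases before a RefSeq start of genes of either step are shown for comparison, from RefSeq on GRCm38.p6, 5′ to 3′ on the strand of the gene, with CG dinucleotides in capitals. Catsper2 and Catsperd rose in pachytene cells and Catsper3 in spermatids. Catsper1 and Catsperg2 have no window here.
Catsper2, chr2:121413793-121414042, minus strand: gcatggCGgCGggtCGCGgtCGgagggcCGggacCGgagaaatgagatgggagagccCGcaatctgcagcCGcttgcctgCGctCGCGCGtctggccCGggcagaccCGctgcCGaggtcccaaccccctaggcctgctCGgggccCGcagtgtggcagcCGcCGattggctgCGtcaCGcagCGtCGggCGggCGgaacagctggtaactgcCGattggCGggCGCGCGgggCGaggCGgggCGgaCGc
Catsperd, chr17:56626797-56627046, plus strand: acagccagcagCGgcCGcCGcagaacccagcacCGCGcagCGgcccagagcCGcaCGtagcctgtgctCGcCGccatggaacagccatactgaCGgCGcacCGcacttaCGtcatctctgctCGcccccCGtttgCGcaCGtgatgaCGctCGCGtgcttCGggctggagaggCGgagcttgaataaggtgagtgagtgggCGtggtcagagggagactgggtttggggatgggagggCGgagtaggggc
Catsper3, chr13:55784329-55784578, plus strand: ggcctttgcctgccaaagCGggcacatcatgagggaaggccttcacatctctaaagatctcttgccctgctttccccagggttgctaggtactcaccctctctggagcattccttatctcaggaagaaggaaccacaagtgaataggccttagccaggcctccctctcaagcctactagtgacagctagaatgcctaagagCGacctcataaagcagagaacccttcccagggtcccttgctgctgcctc

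The Catsper2 window held 35 CG dinucleotides and 74.8% G and C, and 2.97% of all 32851 promoter windows held at least as many CG. That window overlaps the start of Pdia3 and the Catsperd window that of Lonp1, each on the opposite strand. The Catsperd window shown held 25 CG (10.7% of windows held as many) and a second Catsperd start 11 (35.6%). The Catsper3 window held 2, a number reached by 81.2% of windows. The windows of Catsperg1, which also rose in pachytene cells and are not printed, held 5 and 7. The median of all windows was 6. A search of both strands for TGACGT, from the cyclic AMP response element, AACNGTT, a MYB site, and GTTGCC, from the site of RFX factors, found a single match over the windows of Catsper2, Catsper3, Catsperd and Catsperg1. It was TGACGT on the reverse strand of the Catsperd window, 142 bases before the RefSeq start that ends this window. That start lies inside the gene coordinates given for Catsperd, as does the whole Catsper2 window for Catsper2. Of all windows, 6.47% held TGACGT, 3.8% AACNGTT and 10.4% GTTGCC. Other forms of these sites were not searched.

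Catsper1 encodes the pore subunit with a histidine-rich N terminus, and the other CatSper subunits depend on it for their presence in mouse sperm. Its signals were 34.4 and 37.0 in type A, 22.3 and 43.5 in type B, 102 and 79.2 in pachytene cells, and 1282 and 1074 in round spermatids. Both spermatid arrays were more than 10 times every other array, and the spermatogonial groups overlapped. The rise in spermatids over pachytene cells was 3.49 ± 0.26 log2 (11.2-fold on this scale, limma adjusted p = 6.58e-05). The earlier step was small, at 1.04 ± 0.26 for pachytene over type A (limma adjusted p = 0.0076) and 1.15 ± 0.26 over type B (0.00546).

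Catsper3 encodes a second pore subunit and had nearly the same course. Signals were 22.4 and 7.8 in type A, 12.2 and 27.2 in type B, 63.9 and 45.2 in pachytene cells, and 974.5 and 868.6 in round spermatids. The spermatid arrays stood far above the rest, with the spermatogonial groups overlapping again. Catsper3 rose in spermatids over pachytene cells by 3.74 ± 0.31 log2 (13.4-fold, limma adjusted p = 8.79e-05). In pachytene cells it rose by 1.21 ± 0.31 over type A (0.00868) and by 1.00 ± 0.31 over type B (0.0227).

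The small pachytene steps of both genes depended on single arrays. Without pachytene replicate 1, the change over type A was 0.88 for Catsper1 (limma adjusted p = 0.0588) and 1.02 for Catsper3 (0.0637), and that of Catsper3 over type B was 0.81 (0.132). The Catsper3 calls were also lost over type A without type A replicate 2 (0.86, adjusted p = 0.0619) and over type B without type B replicate 1 (0.69, adjusted p = 0.1). Above the type A mean, the pachytene signal was 4.81% of the spermatid signal for Catsper1 and 4.35% for Catsper3. For the 8 round spermatid markers this share ran from 4.91% to 14.6%, with a median of 7.28%. Whether the pachytene signal of Catsper1 and Catsper3 came with spermatids in those preparations was not tested.

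Catsper2, the remaining measured pore subunit, rose earlier. On its brighter probe set, 1425309_at, signals were 115 and 84.3 in type A, 100.9 and 334.2 in type B, 1574 and 1539 in pachytene cells, and 2456 and 2151 in round spermatids. Both pachytene arrays exceeded all spermatogonial arrays, and both spermatid arrays exceeded both pachytene arrays. The rise in pachytene cells was 3.78 ± 0.44 log2 over type A (13.7-fold, limma adjusted p = 0.000231) and 2.96 ± 0.44 over type B (0.000872). The further change in spermatids was 0.56 ± 0.44, with a 95% interval from -0.47 to 1.58, and did not pass (adjusted p = 0.382). It passed when only the spermatid and pachytene arrays were fitted (adjusted p = 0.0318), a fit that leaves out the spread of the type B pair.

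**Figure D1:**
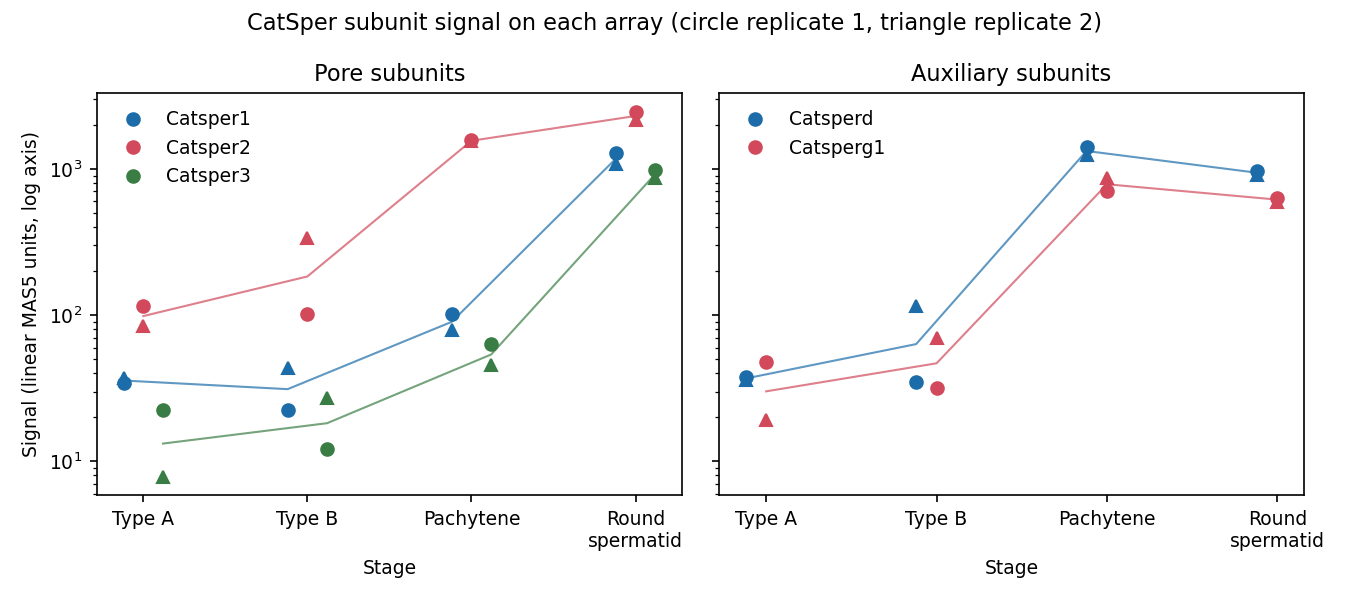
Signal of each tested CatSper gene on every array, on a log axis, by stage; circles are replicate 1, triangles replicate 2, and lines join the geometric means of the pairs. Catsper1 and Catsper3 are high only at the spermatid stage (868.6 to 1282), whereas Catsper2, Catsperd and Catsperg1 are already at 706.6 to 1574 in pachytene cells.

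Among the auxiliary subunits, Catsperd, which is needed for the channel complex to be stable in mouse sperm, had its highest level in pachytene cells. Its brighter probe set, 1434726_at, gave 37.9 and 35.8 in type A, 34.6 and 116 in type B, 1416 and 1239 in pachytene cells, and 967.7 and 914 in round spermatids. Every pachytene and spermatid value was above every spermatogonial value, and the pachytene pair lay above the spermatid pair. Catsperd rose in pachytene cells by 4.67 ± 0.39 log2 over type A (25.4-fold, limma adjusted p = 9.05e-05) and by 4.04 ± 0.39 over type B (0.00017). In spermatids against pachytene cells it read -0.49 ± 0.39, with a 95% interval from -1.38 to 0.41 (adjusted p = 0.384).

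Catsperg1, one of the mouse genes for the gamma subunit, behaved likewise. It read 47.4 and 19.1 in type A, 31.5 and 69.5 in type B, 706.6 and 870.9 in pachytene cells, and 635.2 and 596.7 in round spermatids on probe set 1425852_at. The later stages did not overlap with the spermatogonial ones. The rise in pachytene cells was 4.08 ± 0.35 log2 over type A (17.0-fold, limma adjusted p = 9.95e-05) and 3.65 ± 0.35 over type B (0.000172), and the change in spermatids against pachytene cells was -0.34 ± 0.35, with a 95% interval from -1.16 to 0.48 (adjusted p = 0.512).

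Catsperg2, the other gamma gene, was represented only by probe set 1431616_at, which read 0.8 to 7.4 over all 8 arrays. It was below the array median on each of them and was not tested. The second Catsperd probe set, 1431586_at, was likewise below the median everywhere, at 1.4 to 12.9, although the first one gave a strong signal for the same gene. A low signal of a probe set therefore need not show that the transcript is missing. The gamma genes are related copies, and whether the Catsperg1 probe sets also bind Catsperg2 transcripts was not tested.

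The second probe sets of Catsper2 and Catsperg1 could be set beside the first in a fit with 28623 probe sets. For Catsperg1, 1445171_at gave 38.4 and 24.1 in type A, 29.7 and 31.7 in type B, 281 and 261 in pachytene cells, and 224 and 277 in spermatids. It rose by 2.62 ± 0.23 log2 in pachytene cells over type A (limma adjusted p = 0.000167) and read -0.11 ± 0.23 in spermatids over pachytene cells (0.777), the same order of stages as the first probe set. For Catsper2, 1445264_at gave 39.8 and 23.9 in type A, 23.6 and 29.5 in type B, 141.3 and 140.9 in pachytene cells, and 77.3 and 78.0 in spermatids.

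The Catsper2 probe sets thus read in opposite directions after meiosis. The dimmer one fell in spermatids against pachytene cells by 0.75 ± 0.23 log2 (limma adjusted p = 0.0415), while the brighter one read 0.56 ± 0.45 in the same fit (0.424) and did not pass. The difference in their courses over the 4 stages was tested by an exact permutation over all 105 ways to split the 8 arrays into 4 pairs. The permutation covers all stages, the pachytene rise included, and does not test the spermatid step alone. This exact test gave p = 0.00952, the smallest possible value, for Catsper2 and p = 0.0571 for Catsperg1, and was chosen after the values were seen. Which transcript forms these probe sets detect was not examined.

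**Figure D2:**
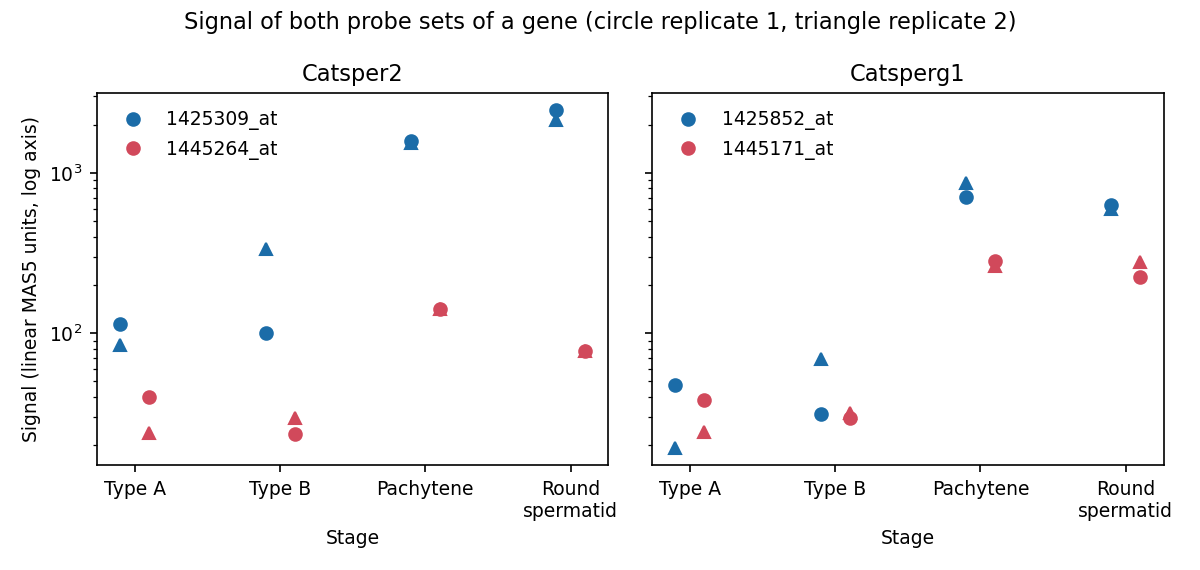
Signal of both probe sets of Catsper2 and of Catsperg1 on every array, on a log axis, by stage; circles are replicate 1 and triangles replicate 2. From pachytene cells to spermatids the brighter Catsper2 probe set is higher (2151 to 2456 in spermatids, 1539 and 1574 in pachytene cells) and the dimmer one lower (77.3 and 78.0 in spermatids, 140.9 and 141.3 in pachytene cells).

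Counted over the 5 tested genes, all 5 rose in pachytene cells against type A, where 27.2% of all genes tested were called higher and 35.6% lower. All 5 also rose against type B, beside 25.5% of all genes higher and 32.7% lower. In spermatids against pachytene cells, 2 of the 5 rose and none fell (15.9% of all genes higher, 19% lower), and against type A all 5 rose in spermatids (28.2% higher, 41.9% lower). The pore subunits had a median of 1.21 log2 in pachytene cells over type A and 3.49 in spermatids over pachytene cells. For the auxiliary subunits these medians were 4.38 and -0.41, and over all genes tested -0.14 and -0.06. The subunit medians are over 3 pore and 2 auxiliary genes, and the pore subunit Catsper2 departed from its class, at 3.78 and 0.56. Without pachytene replicate 1, the count for pachytene cells against type A was 3.

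Against type A, spermatid levels were higher by 4.52 ± 0.26 log2 for Catsper1 (limma adjusted p = 9.91e-06), 4.34 ± 0.44 for Catsper2 (7.65e-05), 4.95 ± 0.31 for Catsper3 (1.17e-05), 4.18 ± 0.39 for Catsperd (5.05e-05) and 3.74 ± 0.36 for Catsperg1 (5.39e-05). On the brightest probe set of each tested gene, the rise from type A to spermatids was thus 13.4-fold to 31.0-fold, and the genes differed in the stage at which it took place. The dimmer probe sets of Catsper2 and Catsperg1 rose less, by 1.98-fold and 5.68-fold. All these folds include the constant added to each signal before the log2 step, which understates changes of dim genes. Mean signals of Catsper3, for example, were 15.1 in type A and 921.5 in spermatids.

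The courses of the genes were compared for all 10 pairs of tested members, with the same exact permutation over 105 splits. It was applied to the difference of their log2 signals. A pass shows that this difference varied with stage, and cannot separate the timing of a rise from its size. These tests were chosen after the values were seen. Each of the 6 pairs of Catsper1 or Catsper3 with Catsper2, Catsperd or Catsperg1 passed after Benjamini-Hochberg adjustment (exact permutation p = 0.00952 to 0.0286, adjusted p = 0.038 to 0.0477). The spermatid step was larger for Catsper1 than for Catsper2 by 2.93 log2, than for Catsperd by 3.97 and than for Catsperg1 by 3.83. For Catsper3 it was larger than for Catsperd by 4.23 and than for Catsperg1 by 4.08, and the difference of Catsper2 minus Catsper3 was -3.18.

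The other 4 pairs did not pass. Catsper1 minus Catsper3 was -0.26 log2 in the spermatid step (exact permutation p = 0.457, adjusted p = 0.508), and Catsperd minus Catsperg1 -0.15 (exact permutation p = 0.59, adjusted p = 0.59). Catsper2 was larger than Catsperd by 1.05 (adjusted p = 0.136) and than Catsperg1 by 0.90 (exact permutation, adjusted p = 0.226) in that step. With 2 arrays per stage these values do not show that the pairs act alike. Over the 8 arrays, Pearson's r was 0.994 between Catsper1 and Catsper3 and 0.991 between Catsperd and Catsperg1. Catsper2 correlated with Catsperd at 0.979 and with Catsperg1 at 0.976, and with Catsper1 and Catsper3 at 0.802 and 0.805. These points share the 4 stages and the 8 libraries.

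Between type B and type A spermatogonia no CatSper gene was called. The limma test called 0 of all 14155 genes there (0% higher and 0% lower), with 789 higher and 594 lower at an unadjusted p under 0.05. The 2 type B arrays differed: replicate 2 exceeded replicate 1 for Catsper1 (43.5 against 22.3), Catsper2 (334.2 against 100.9), Catsper3 (27.2 against 12.2), Catsperd (116 against 34.6) and Catsperg1 (69.5 against 31.5). Expressed as a share of the pachytene excess over replicate 1, this was 31.0% for Catsper1, 16% for Catsper2, 35.4% for Catsper3, 6.28% for Catsperd and 5.02% for Catsperg1. The same share was 14.4% to 94.7% for round spermatid markers and 3.64% to 78.0% for pachytene markers. Leaving out type B replicate 1, Catsper2 and Catsperd were called in type B over type A at 1.61 (limma adjusted p = 0.00381) and 1.32 log2 (0.00593). Leaving out replicate 2, Catsper2 read 0.03 and Catsperd -0.06. The part of later cells in type B replicate 2 was not tested.

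The remaining genes of the channel complex were followed as a list of 9, of which 7 had a named probe set, and all 7 were tested. In pachytene cells against type A 5 rose, in spermatids against pachytene cells 3 rose, and in spermatids against type A all 7 rose, with none lower in any comparison and the same counts without type B replicate 2. Over all genes tested, 27.2%, 15.9% and 28.2% were higher in these comparisons. None of the 7 was above the array median on all 8 arrays, and Tmem249 and Tmem262 were above it only on the 2 spermatid arrays, so they entered the test through the stages where they are high, and the counts are a description. The list median was 4.44 log2 in pachytene cells over type A and 0.56 in spermatids over pachytene cells.

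Efcab9, which encodes the calcium-sensing partner of the channel, had 19.9 and 15.5 in type A, 28.6 and 92.6 in type B, 135 and 151 in pachytene cells, and 2108 and 2593 in spermatids. In pachytene cells over type A it rose by 2.24 ± 0.38 log2 (limma adjusted p = 0.00113), more than Catsper1 or Catsper3. It rose by a further 3.89 ± 0.38 log2 in spermatids over pachytene cells (limma adjusted p = 0.000182). Its spermatid signal stood apart from all other arrays, as for Catsper1 and Catsper3. Tmem249 and Tmem262, which encode small transmembrane subunits, rose at that step too, by 3.41 ± 0.33 (adjusted p = 0.000172) and 2.27 ± 0.30 (adjusted p = 0.000818), and neither passed in pachytene cells against type A (0.31 ± 0.33 and 0.70 ± 0.30).

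C2cd6, a cytoplasmic component with membrane-binding C2 domains, rose in pachytene cells over type A by 4.44 ± 0.61 log2 (limma adjusted p = 0.000432). Slco6c1, an organic anion transporter found with the complex, had 4.7 and 3.6 in type A, 3.5 and 379.1 in type B, 1815 and 1930.1 in pachytene cells, and 1625 and 1645 in spermatids. It rose by 6.55 ± 1.10 in pachytene cells over type A (limma adjusted p = 0.00112), and Trim69, encoding a ubiquitin ligase reported with the complex, by 5.60 ± 0.88 (0.000821). In spermatids against pachytene cells these genes read 0.56 ± 0.61, -0.19 ± 1.10 and 0.10 ± 0.88 and did not pass.

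The probe set annotated to Catsperz, whose protein pairs with EFCAB9, rose by 6.66 ± 1.28 log2 in pachytene cells over type A (limma adjusted p = 0.00226). It read 1605 and 2434 in pachytene cells and differed widely within type B, at 6.3 and 719.7. Its gene is uncertain, because the sequence listed beside it belongs to the adjacent potassium channel gene Kcnk4. A different probe set named for Kcnk4 read 5.8 to 22.2 on all 8 arrays.

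**Figure D3:**
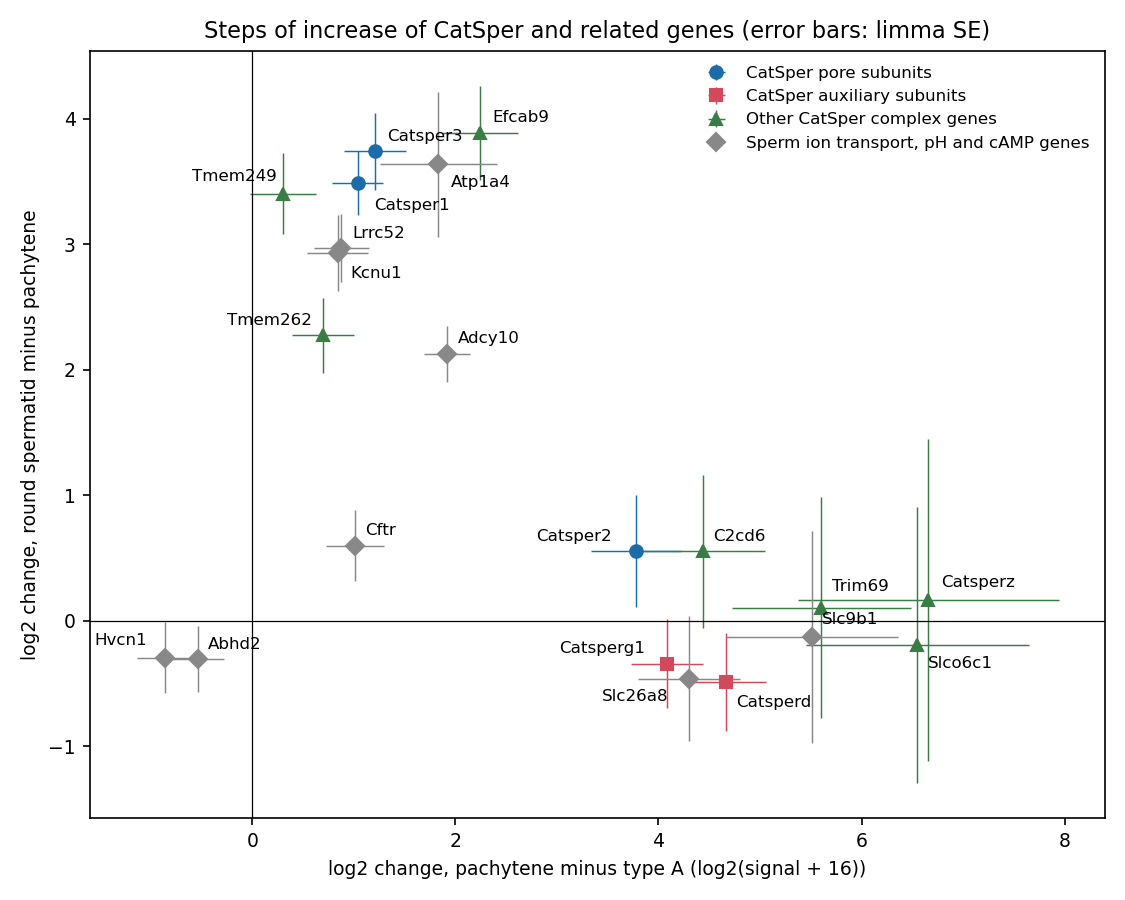
Log2 change in pachytene cells against type A (horizontal axis) and in round spermatids against pachytene cells (vertical axis) for the tested CatSper genes, other genes of the complex, and other sperm ion transport genes; bars are limma standard errors, n = 2 arrays against 2. Catsper1 and Catsper3 sit at the upper left beside Efcab9, Tmem249, Kcnu1, Lrrc52 and Atp1a4. Catsper2, Catsperd and Catsperg1 sit at the lower right beside C2cd6 and Slc26a8.

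Other genes that set membrane potential, pH and cyclic AMP in sperm were a list of 13, with 9 tested. In pachytene cells against type A 7 rose and 1 fell, and in spermatids against pachytene cells 4 rose and none fell. Over all genes tested, 27.2% were higher and 35.6% lower at the first of these steps, and 15.9% higher and 19% lower at the second. Kcnu1, Lrrc52 and Cftr were above the array median on no spermatogonial array, and Atp1a4 and Slc9b1 on 1. Hvcn1 was above it on 2 spermatogonial arrays and on no later array. All of these entered the test through the stages where they are high, and their changes are a description. The 4 that rose in spermatids were Kcnu1, the alkaline-activated potassium channel SLO3 of sperm, its partner Lrrc52, the bicarbonate-stimulated adenylyl cyclase Adcy10, and the testis sodium pump subunit Atp1a4. Kcnu1 had 677.5 and 620.4 in spermatids, against 102.4 and 48.0 in pachytene cells, a change of 2.93 ± 0.30 log2 (limma adjusted p = 0.000238). Lrrc52 rose by 2.97 ± 0.27 (0.000138), Adcy10 by 2.13 ± 0.22 (0.000261) and Atp1a4 by 3.64 ± 0.58 (0.00199). All 4 were also called higher in pachytene cells over type A. Adcy10 rose there by 1.92 ± 0.22 (limma adjusted p = 0.000221) and Atp1a4 by 1.83 ± 0.58 (0.0231). Kcnu1 and Lrrc52 rose less, by 0.84 ± 0.30 (0.038) and 0.88 ± 0.27 (0.0214). Slc26a8, an anion transporter of the sperm annulus, and Slc9b1, a sperm sodium-proton exchanger, had their step in pachytene cells, at 4.30 ± 0.50 (limma adjusted p = 0.000219) and 5.51 ± 0.85 (0.000733) over type A. The proton channel gene Hvcn1 fell in pachytene cells against type A by 0.86 ± 0.28 (adjusted p = 0.027), and the lipid hydrolase gene Abhd2 read -0.54 ± 0.26 (0.109).

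Of 12 genes of voltage-gated calcium channels and two-pore channels, which are related to the CatSper pore, 9 were tested. In pachytene cells against type A 1 was higher and 2 lower, in spermatids against pachytene cells 1 higher and 2 lower, and the list medians were -0.31 and 0.27 log2. The shares over all genes were 27.2% higher and 35.6% lower, and 15.9% higher and 19% lower. The gene that was higher in pachytene cells was the T-type channel Cacna1h, with 864.7 and 889.4 in pachytene cells, against 240.2 and 205.9 in type A, a rise of 1.91 ± 0.20 (limma adjusted p = 0.000164). Cacna1h was lower again in spermatids against pachytene cells (-0.69 ± 0.20, adjusted p = 0.0317), as was the lysosomal two-pore channel Tpcn1 (-0.96 ± 0.20, 0.00754), while Cacna1s was higher (1.24 ± 0.34, 0.0224). Cacna1b and Cacna1c were lower in pachytene cells against type A (-1.18 ± 0.29 and -1.33 ± 0.22, adjusted p = 0.00741 and 0.00103). In spermatids against type A 1 of the 9 was higher and 4 lower, beside 28.2% and 41.9% of all genes. Cacna1a was among those lower (-1.135 ± 0.382, limma adjusted p = 0.0271). Cacna1a and Cacna1c were above the array median only on spermatogonial arrays, and Cacna1b on 3 of those and 1 spermatid array. These genes so entered the test through the stages where they are high, and their falls are a description. Cacna1d, Cacna1f and Tpcn2 were called in none of the 5 comparisons by limma.

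The genes most like the pore subunits in pattern were taken as the 5 with the highest Pearson correlation to their mean log2 profile over the 8 arrays. They were Ttll9 (r = 0.9986), Vwa3b (0.9982), Spata18 (0.9982), Plcz1 (0.9981) and Efcab3 (0.9976). Ttll9, a tubulin glutamylase of the flagellum, had 1230.1 and 1231 in spermatids, against 149.3 and 128.3 in pachytene cells. Plcz1, the sperm phospholipase that triggers calcium oscillations in the egg, had 1755 and 1696 in spermatids, against 166.4 and 117 in pachytene cells. For the auxiliary profile they were Lrrc49 (0.9983), Ap4b1 (0.9974), Ccdc92 (0.9969), Agbl5 (0.9968) and Gatad1 (0.9961). Agbl5, a tubulin deglutamylase, had 2393.4 and 2392.8 in pachytene cells, against 226.1 and 168.4 in type A. Such likeness was common, as 704 genes reached r = 0.95 with the pore profile and 1083 with the auxiliary one. The pore profile joins Catsper2 with Catsper1 and Catsper3, with which Catsper2 correlated at 0.802 and 0.805. The genes named for this profile therefore need not follow Catsper2.

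Neighbouring genes of the members within 2000 bases, chosen after the values were seen, did not move with them in each case. In the GRCm38.p6 gene table Catsper2 (chr2:121391633-121414598, minus strand) overlaps by 697 bases the start of Pdia3, a protein disulfide isomerase gene on the plus strand. Pdia3 read 1450.3 and 1789 in pachytene cells, against 1327 and 1688 in type A, and its change of 0.10 ± 0.22 log2 did not pass (limma adjusted p = 0.706), whereas Catsper2 rose. Catsperd (chr17:56626911-56664456, plus strand) starts 7 bases from Lonp1, which encodes a mitochondrial protease and lies on the minus strand. Lonp1 had 117 and 119 in pachytene cells, against 314.6 and 335.0 in type A, and fell by 1.35 ± 0.22 (adjusted p = 0.00107) where Catsperd rose. Psmd8, a proteasome subunit gene 858 bases from Catsperg1 (chr7:29181532-29215589), rose by 1.96 ± 0.26 over type A in pachytene cells (adjusted p = 0.000384). Cst6, next to Catsper1 (chr19:5335615-5344281), read 1.3 to 7.6 on all arrays, and Pitx1, next to Catsper3 (chr13:55784500-55824048), was not called at either step (0.48 ± 0.23 and 0.47 ± 0.23) but was higher in spermatids over type A by 0.96 ± 0.23 (limma adjusted p = 0.00572), the direction of Catsper3.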

How the data were processed

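Per the labels, biotin-labelled total RNA was hybridised to Mouse 430 2.0 arrays. For every array the authors deposited a linear intensity for each probe set, and the submitters' processing notes name MAS5 without a version. Detection calls were not used here. MAS5 scaling hides changes of total RNA per cell. Gene names came from the platform annotation, updated through gene identifiers with a GRCm38.p6 table: 34945 of 45101 probe sets listed 1 gene, 932 several, and 64 were controls. For each of 18193 genes, the probe set of highest mean signal was kept. Values were log2-transformed with a pseudocount of 16, which understates changes of dim genes, and tested with limma 3.58.1 in R 4.3.3 (1 mean per group, 8 arrays, eBayes without trend, two-sided, Benjamini-Hochberg over 14155 genes per comparison; 4 residual and 4.014 prior degrees of freedom). On simulated data for spermatids against pachytene cells with 14155 genes, the fit called 18% of 50 genes changed by 1 log2, 86% of 50 by 2, 90% of 50 by 3 and 98% of 50 by 4. Only 200 genes were changed there, whereas the data had 15.9% of genes called higher and 19% lower. The adjustment was therefore stricter in the simulation, and these shares do not measure the power of the tests on the data. Named genes were all members, the 5 called genes with the largest change and the never called genes of 3 related lists, and the 5 genes closest in pattern to each subunit class; further list genes and neighbouring genes within 2000 bases were added after values were seen. The members and lists were chosen with earlier results of these data known. The permutation tests and the promoter composition were added after the values were seen. Same-numbered arrays of different stages did not deviate together (r of deviations -0.175 to 0.169), so replicate numbers were not treated as pairs. Alternatives covered the pseudocount, the low-signal filter, the scaling, the probe set rule, the variance prior, the groups fitted, left-out arrays and a replicate block.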

Additional observations from a re-analysis of the deposited data

How the results depend on the processing

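Of 450 recomputed values (25 gene changes under 18 alternatives each), 437 kept their direction and their side of the threshold. The changes of direction all lay between type B and type A, in changes that had not passed: Catsper1 read 0.01 with arrays centred on the median and -0.43 to 0.20 with arrays left out in turn, and over the same refits Catsper3 read -0.14 (type A replicate 2 left out) to 0.55, at -0.10 if type B replicate 2 was dropped, and Catsperd -0.06 to 1.32. These follow from the single array left out or from the shift of centring. With arrays left out in turn, the number of CatSper genes higher was 0 to 2 in type B against type A, 4 to 5 in pachytene against type B, 3 to 5 in pachytene against type A, 2 in spermatids against pachytene and 5 in spermatids against type A. No CatSper gene was called lower in these refits. Between type B and type A over all genes, 1158 were higher and 198 lower without type B replicate 1, against 0 and 0 with all arrays, and the cause was not tested. The genes lower in spermatids against pachytene numbered 2692, and 1357 to 1667 when a pachytene or spermatid array was left out. Scaling moved the median of all genes by up to 0.44 log2 (75th percentile centring, spermatids against type A) and left the CatSper counts as they were. Over all genes in pachytene against type A it gave 5294 higher and 3753 lower, against 3855 and 5042 as deposited; centring on the median gave 4889 and 3805. In pachytene against type B these were 5029 and 3508, and 4329 and 3732, against 3607 and 4625, and in spermatids against type A 5239 and 4254, and 4765 and 4551, against 3990 and 5924. With the replicate number as a block the CatSper counts were 0, 5, 5, 2 and 5, the same as without it, with 3857 genes higher and 5062 lower in pachytene against type A. Without type B replicate 2, 2 of the 9 other calcium channel genes were lower in pachytene against type B, against 1 with it, an alternative chosen after seeing the data. With 2 arrays a stage, signals near the array median, as in spermatogonia, set no order.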

Other observations

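A further probe set listed Catspere2 together with Gm30473, which the gene table gives as a synonym of Catspere2, a gene for the epsilon auxiliary subunit. It was left out of the counts because it lists 2 genes. Its signals were 31.2 and 24.1 in type A, 27.4 and 42.2 in type B, 814.1 and 641.2 in pachytene cells, and 138.3 and 137.7 in round spermatids. It rose by 4.09 ± 0.23 log2 in pachytene cells over type A (limma adjusted p = 0.000131, every probe set as a row) and fell by 2.26 ± 0.23 in spermatids against pachytene cells (adjusted p = 0.00044). Of the CatSper probe sets described here, this one and the dimmer Catsper2 probe set were the ones called lower in spermatids.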
